A study of Rattus norvegicus with 4 samples.

Results

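Overlapping upstream ORFs are open reading frames that begin in the 5′ leader of an mRNA and end inside the annotated coding sequence, in another reading frame. They were taken as the rows of the deposited ORF annotation whose class is Overlap_uORF. Of 18847 ORFs in the annotation, 510 (2.71%) were of this class, in 504 host genes, 6 of which held 2 of them. The ribosome profiling libraries came from neonatal rat ventricular cardiomyocytes, isolated from Sprague-Dawley rats on postnatal day 2 and plated briefly first so that other heart cells would stick and be left behind. The PE group (2 libraries) had received phenylephrine, an α1-adrenergic agonist that makes cultured cardiomyocytes grow, at 20 µM for 24 h. The control group (2 libraries) was the same kind of cells without it, according to the sample titles, although the treatment text mentions PE for all 4 libraries. Both groups were washed with cycloheximide, which stalls elongating ribosomes.

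In ribosome profiling, RNA fragments protected by ribosomes are sequenced, so a count on an ORF reports ribosomes sitting on it. The small ribosomal subunit normally scans from the 5′ end of the mRNA and begins at an AUG in a good sequence context. A subunit that has translated a short uORF ending before the coding sequence can resume scanning and begin again at the annotated AUG. One that translates an overlapping uORF ends beyond that AUG, so the coding sequence is reached mainly by subunits that scanned past the upstream start (leaky scanning). Atf4, the transcription factor of the integrated stress response, is the textbook gene with such a uORF.

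The start codon context is what a scanning subunit reads, so start sites are shown for 6 of the members described later. RefSeq sequence around transcript starts (build GRCr8, from 250 bases before to 50 after) was available for 386 members by gene symbol, and the deposited peptide could be matched to it over at least 8 residues for 62. A purine stood at position -3 in 30 of the 62 (48.4%) and a G at position +4 in 24 (38.7%), counting the A of the ATG as +1. Both features of a favourable context were present in 13 and neither in 21. The window favours uORFs near the transcript start, whereas the median member began 118.5 nt into its transcript. Some of the 62, such as Alg3 and Dnajc7, share residues with an annotated ORF of their gene. These shares therefore describe the 62 alone, and the context of other ATGs was not compared. In the sequences below the ATG of the overlapping uORF is in capitals. They lie on the plus strand at chr1:215223015-215223044 (Ganab), chr13:49819094-49819123 (Tnnt2), chr4:159098998-159099027 (C1r), chr10:68450785-68450814 (Slfn2), chr13:107362506-107362535 (Lamb3) and chr14:32300544-32300573 (Clock).
Ganab: acccggtacaagATGgcggcgatagcggca
Tnnt2: aaagctctccccATGccctgccctcagcca
C1r: tccctcccctgcATGcccactccctccttc
Slfn2: aggtgattaaagATGtccacagttctggga
Lamb3: cagtgacgtcagATGggcgtgtcgactgcc
Clock: ggagaagtacaaATGtctaccacaagacga
The Ganab site had both the purine and the G, Slfn2 had the purine alone and Lamb3 the G alone. The sites of Tnnt2, C1r and Clock had neither. Whether the Ganab ATG is also the start of a Ganab protein on another transcript was not tested.

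The libraries held 12117629 and 12537740 counts over all ORFs in PE cells and 11446574 and 13827599 in control cells. Summed levels of 7 cardiomyocyte markers were 64058 and 64423 CPM (counts scaled to library size) in PE cells and 57052 and 57064 CPM in control cells. Those of 8 fibroblast markers were 20814 and 21050 CPM in PE cells and 34404 and 34671 CPM in control cells. Markers of other cell types were far less abundant. Smooth muscle and pericyte markers (4 genes) summed to 849 and 862 CPM in PE cells and 788 and 808 CPM in control cells, and endothelial markers (4 of 5 listed) to 114 and 122 CPM in PE cells and 201 and 193 CPM in control cells. Macrophage and leukocyte markers (5 genes, Cd163 at 0) summed to 245 and 240 CPM in PE cells and 390 and 371 CPM in control cells, and epicardial markers (3 genes) to 116 and 114 CPM in PE cells and 172 and 187 CPM in control cells. Marker sums thus moved with treatment, and their part in the changes of the uORFs was not tested. In such bulk samples fewer cells of a type and less RNA per cell cannot be told apart, and without RNA levels, which were not used here, a change in mRNA and a change in its translation cannot be told apart either. The labels do not say that replicates came from separate cultures, and p-values therefore describe the variation among these 4 libraries alone.

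The overlapping uORFs were short. Their median length was 142.5 nt (quartiles 90.0 and 231.0 nt), all 510 began with methionine, and the median start lay 118.5 nt from the 5′ end of the transcript. The median overlap with the annotated coding sequence, stop codon included, was 61.5 nt (quartiles 23.0 and 118.75 nt, range 4 to 511 nt), and 282 members had over 50% of their length upstream of the annotated start. One length stood apart: 52 members (10.2%) overlapped by exactly 4 nt, against 11 (2.16%) at the next most common length, 17 nt. With an overlap of 4 nt the stop codon of the uORF shares its first bases with the annotated start codon, so termination takes place on top of that start. How many overlaps of 4 nt these shared bases alone would give was not tested. Lamb3, Tnfrsf11b, Cln8, Capzb, Ctsh and Masp1 had this arrangement. The annotated coding sequence was in frame +1 relative to the uORF in 275 members, in frame +2 in 235 and in the same frame in none.

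**Figure D1:**
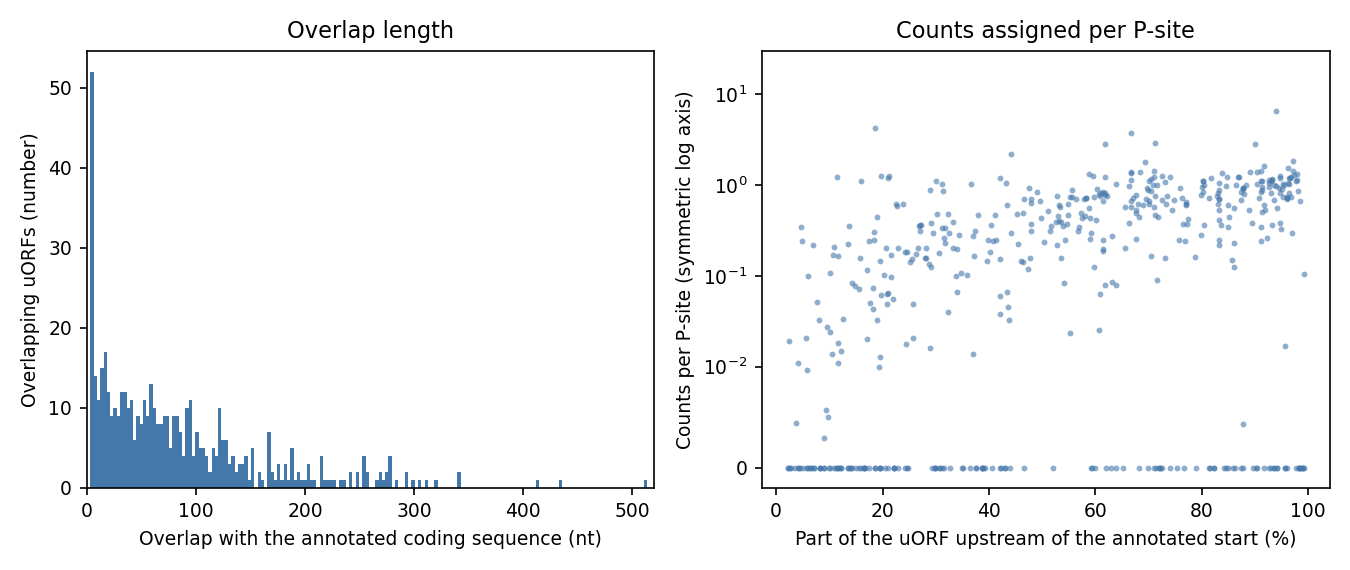
Left, number of overlapping uORFs (vertical axis) by overlap with the annotated coding sequence in nt, in bins of 3 nt. The tallest bin holds the 52 members with an overlap of 4 nt. Right, footprint counts per P-site (symmetric log axis) against the percentage of each uORF that lies upstream of the annotated start, 1 point per uORF. Points at 0 have P-sites but no counts and are most frequent at low percentages.

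Because 2 frames are read over the same bases, the authors' P-sites (the position of the ribosome's peptidyl site, summed per reading frame) show how far footprints followed the frame of the uORF. Of 126581 P-sites on overlapping uORFs, 64.7% were in the frame of the uORF, against 78.3% for separate uORFs and 84.8% for annotated ORFs. The remainder lay mostly in the frame of the coding sequence. Where the coding sequence was in frame +1, 25.9% of P-sites were in frame +1 and 6.63% in frame +2. Where it was in frame +2, 31.5% were in frame +2 and 10.1% in frame +1. At least 50% of P-sites were in the uORF's own frame in 417 members, and 58 members had more P-sites in the frame of the coding sequence than in their own. Tnnt2 (cardiac troponin T, a thin filament protein), C1r (a complement protease) and Mlip were among the latter, with 35.2%, 26.7% and 26.2% of P-sites in the uORF's frame.

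**Figure D2:**
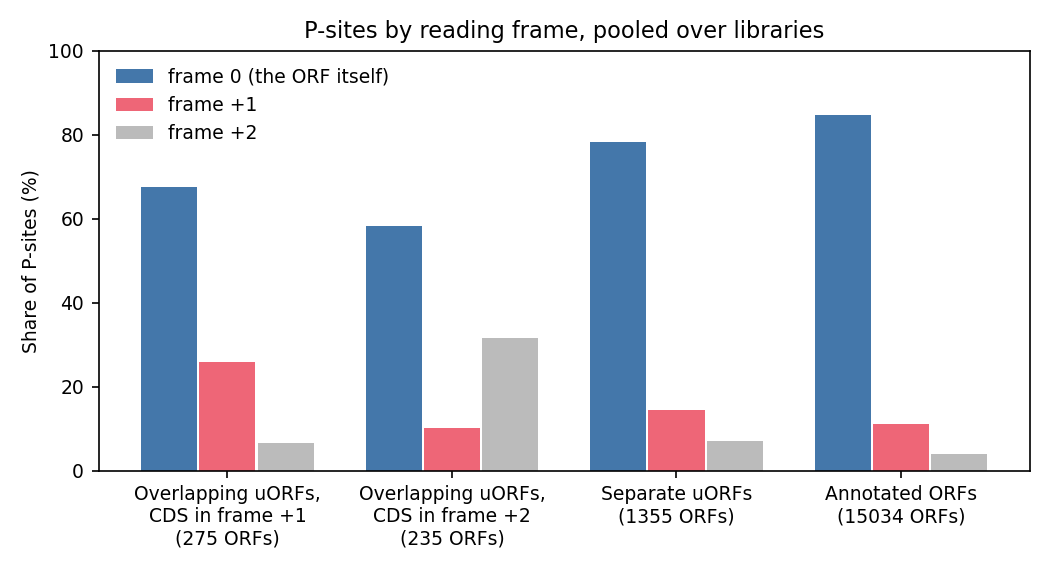
Share of P-sites (%) in each reading frame for overlapping uORFs with the coding sequence in frame +1, overlapping uORFs with it in frame +2, separate uORFs and annotated ORFs, pooled over libraries. Among overlapping uORFs the second tallest bar is the frame of the coding sequence, at 25.9% and 31.5%.

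Counts and P-sites did not run in parallel. The median overlapping uORF had 72 P-sites (range 6 to 14908) but 0.249 counts per P-site, against 1.19 for separate uORFs and 1.14 for annotated ORFs. No counts in any library were recorded for 136 members, 230 had 1 to 39 counts over the 4 libraries, 144 reached a mean of 10 and 19 a mean of 100. The share without counts depended on where the uORF lay. Of the 123 members with at most 25% of their length upstream of the annotated start, 57 had no counts (46.3%, exact Clopper-Pearson 95% interval 37.3 to 55.6%), against 17 of the 127 members with 50 to 75% upstream (13.4%, 7.995 to 20.6%). The median counts per P-site were 0.00971 and 0.533 in these groups. The share was 24.8% (26 of 105) at 25 to 50% upstream and 23.2% (36 of 155, interval 16.8 to 30.7%) at 75 to 100% upstream, so it did not fall steadily. These intervals cover counting error only, and how the authors' counting treated a footprint lying in 2 ORFs is not given in the sources used here.

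Many members without counts carry protein sequence of their own gene. In 67 members the deposited peptide shared at least 10 consecutive residues with an annotated ORF of the same gene, and in 46 of these the stretch began at residue 1 of both. These 46 are out of frame with the coding sequence of the transcript they are listed on but begin with the residues of another annotated ORF of the gene. Of the 67, 55 had no counts (82.1%, interval 70.8 to 90.4%) although their median was 163 P-sites. Of the other 443 members, 81 had no counts (18.3%, interval 14.8 to 22.2%), with a median of 63 P-sites. The median share of P-sites in the uORF's frame was 74.4% in the 67 and 63.0% in the 443. In the 67 such P-sites can include those of the annotated ORF that shares the residues, and the frame shares given above include these members. Ccnd1 (cyclin D1, which drives entry into S phase) shared 136 of 144 residues, had 2146 P-sites and no counts. Taf15 (an RNA-binding protein of the FET family) shared 159 of 163 residues, with 1309 P-sites and no counts, and Max (the partner of Myc) shared 98 of 103. Among members without a stretch shared with their own gene, those with 75 to 100% of their length upstream lacked counts in 8 of 124 cases (6.45%). Those with at most 25% upstream lacked them in 48 of 113 (42.5%). At least 10 consecutive residues were shared with an annotated ORF of another gene in 29 members, and with either kind in 78.

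Overlapping uORFs took a small part of all footprints: 0.100% and 0.0990% of counts in PE cells and 0.0953% and 0.0956% in control cells. A single member, LOC301124 (chr9:10446876-10448653, + strand, Rnor_6.0), held 23.2% of the counts of the class. Its gene ID is listed by RefSeq as Micos13, a subunit of the complex that shapes mitochondrial cristae. It had 229 and 223 CPM in PE cells and 223 and 228 CPM in control cells, so the groups overlapped, and the log2 fold change was 0.00 ± 0.03 (SE), or -0.09 (adjusted p = 0.030, edgeR) with the trend of counts on ORF length removed. Without it the class took 0.0777% and 0.0772% of counts in PE cells and 0.0727% and 0.0724% in control cells. The LOC301124 peptide has 119 residues, and that of Opa3, also among the 12 highest, has 179. No annotated ORF of either gene was listed, so their peptides could not be compared with one. Whether these members are proteins of their genes and not separate uORF peptides was not tested. The next highest were Ganab (glucosidase II α, which trims glycans in the endoplasmic reticulum), Tnnt2, Serf2, Cdk14, Rnf10 and Mlip, with Trak2, C1r, Opa3 and Noc2l also among the 12 highest. Of the 155 residues of the Cdk14 uORF peptide, 10 were identical to the annotated protein of another gene, Cdk16. Whether that member is a Cdk14 protein was not tested. Ganab had 75.8 and 77.2 CPM in PE cells and 84.4 and 79.2 CPM in control cells, a log2 fold change of -0.09 ± 0.06 that did not pass the test (adjusted p = 0.19, edgeR quasi-likelihood test with Benjamini-Hochberg adjustment).

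PE cells were compared with control cells by that test over all 12609 ORFs with enough counts, with an adjusted p threshold of 0.05. Of the 510 overlapping uORFs 147 could be tested, and 26 of these (17.7%) changed, 19 higher in PE cells and 7 lower. Over all ORFs tested, 42.7% changed (21.4% higher and 21.3% lower), and among 724 separate uORFs 138 did (19.1%). The overlapping uORFs had few counts, with a median mean count of 20.75, close to the 21.1 of separate uORFs and far from the 257 of annotated ORFs. At a mean count under 20 the called shares were 13.9% of 72 overlapping uORFs, 12.3% of 342 separate uORFs and 21.5% of 736 annotated ORFs. At 20 to 50 they were 16.7% of 42, 19.2% of 245 and 22.3% of 1223, in the same order, and at 50 to 200 they were 21.7% of 23, 29.9% of 117 and 32.7% of 3044. At 200 or more, 4 of 10 overlapping uORFs, 14 of 20 separate uORFs and 57.8% of 6399 annotated ORFs changed. PE and control libraries did not overlap in 78 of the 147 (53.1%), against 68.6% of all ORFs. The median log2 fold change was 0.18 for overlapping uORFs, 0.17 for separate uORFs and -0.01 for annotated ORFs. The balance of directions depended on scaling: after removal of the trend of each library with ORF length, 12 members were higher and 17 lower, and the median was 0.065. DESeq2's Wald test with the same threshold called 6 higher and 4 lower, and of the called uORFs described in the next paragraphs, all with a mean count of at least 20, Tnnt2, Ddit3, Abcc9 and Lamb3 kept their call under it. Removal of the length trend ended the calls on Serf2, Eif5, Tnfrsf11b, Immp1l, Ext1 and Cln8. In the authors' deposited table, 10 of the 193 members with an adjusted p passed 0.05 (6 higher, 4 lower), against 25.8% of all ORFs there. All 10 were among the 26. Of the 26, 10 had under 0.5 counts per P-site, among them Serf2 (0.221), Eif5 (0.205), Tnfrsf11b (0.331) and Ext1 (0.383).

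The clearest increase was on Tnnt2. Its uORF of 90 coding nt (chr13:52663016-52667976, + strand, Rnor_6.0) overlaps the coding sequence by 8 nt. It had 87.5 and 92.8 CPM in PE cells and 59.4 and 57.9 CPM in control cells. Both PE libraries lay above both controls, and the log2 fold change was 0.62 ± 0.06 (adjusted p = 1.5e-10, edgeR quasi-likelihood test). The annotated Tnnt2 ORF had 6641 and 6670 CPM in PE cells and 5887 and 5921 CPM in control cells, a log2 fold change of 0.17 ± 0.01. As given above, more P-sites on this uORF were in the frame of the coding sequence than in its own.

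Among the stress-translation genes, Ddit3 (CHOP, a transcription factor of the integrated stress response) fell. Its uORF (chr7:70580287-70584560, + strand) had 5.43 and 6.41 CPM in PE cells and 9.12 and 10.6 CPM in control cells, without overlap between the groups, and a log2 fold change of -0.74 ± 0.18 (adjusted p = 9.4e-04, edgeR quasi-likelihood test). No annotated Ddit3 ORF was in the table, so the coding sequence could not be set beside it. Eif5, a translation initiation factor that helps select start codons, had 10.2 and 7.96 CPM in PE cells and 7.14 and 6.06 CPM in control cells (log2 fold change 0.46 ± 0.18, adjusted p = 0.038 by the same edgeR test). That call was lost with library totals as the only scaling and without the first PE or the second control library. The uORF of Atf4 (chr7:121480902-121481620, + strand) had 12.03 and 10.2 CPM in PE cells and 9.81 and 9.83 CPM in control cells. PE values were above control values, but the log2 fold change of 0.18 ± 0.15 did not pass (adjusted p = 0.37, edgeR). On the annotated Atf4 ORF the log2 fold change was -0.21 ± 0.10, and the uORF held 32.7% and 28.8% of the counts of both ORFs in PE cells and 25.8% and 24.8% in control cells. Clock, a core circadian transcription factor, had a 15-codon uORF at 2.17 and 1.06 CPM in PE cells and 1.12 and 1.35 CPM in control cells, and the groups overlapped. Of 57 listed genes known for uORF control or stress translation these 4 had an overlapping uORF, 1 higher, 1 lower and 2 short of the test.

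Decreases included a channel subunit and a circadian factor. Abcc9, the sulfonylurea receptor subunit of the ATP-sensitive potassium channel, had 6.93 and 7.63 CPM on its uORF in PE cells and 13.1 and 12.8 CPM in control cells. The groups were well apart, and the log2 fold change was -0.82 ± 0.15 (adjusted p = 4.4e-05, edgeR quasi-likelihood test), beside -1.22 ± 0.04 on the annotated ORF. Of the 77 residues of the Abcc9 uORF peptide, 11 were identical to the annotated protein of another gene, Abcc8, from its residue 249. Whether this member is an Abcc9 protein and not a separate uORF peptide was not tested. Dbp, a circadian transcription factor, had a 13-codon uORF at 1.25 and 1.87 CPM in PE cells and 2.75 and 4.13 CPM in control cells (log2 fold change -1.15 ± 0.34, adjusted p = 0.0061, edgeR). It lost its call without the first PE library or the second control library.

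Increases were spread over genes of different function. Lamb3, the β3 chain of laminin 332 in basement membranes, had 4.59 and 4.14 CPM in PE cells and 2.41 and 1.28 CPM in control cells, a log2 fold change of 1.27 ± 0.31 (adjusted p = 0.0011, edgeR quasi-likelihood test). Its annotated ORF was higher too, by 0.70 ± 0.02, and without the second control library the uORF's adjusted p was 0.051. Slfn2 (Schlafen 2) had 8.27 and 8.36 CPM in PE cells and 5.51 and 4.92 CPM in control cells. Its log2 fold change was 0.68 ± 0.19 on the uORF and 0.61 ± 0.07 on the annotated ORF, and the uORF passed the test (adjusted p = 0.0039, edgeR). The Serf2 uORF peptide shared 14 residues with the annotated protein of another gene, Serf1. This uORF had 68.0 and 73.0 CPM in PE cells and 58.4 and 64.6 CPM in control cells (log2 fold change 0.19 ± 0.06, adjusted p = 0.016, edgeR). That call was lost with library totals, without the second PE library and without the first control library. Rnf10, a ubiquitin ligase, had 27.1 and 23.5 CPM in PE cells and 17.7 and 20.5 CPM in control cells, with log2 fold changes of 0.40 ± 0.11 on the uORF (adjusted p = 0.0039, edgeR) and 0.30 ± 0.09 on the annotated ORF. Its call was lost without the first PE library or the first control library.

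In a further group the uORF passed the test, and for Tnfrsf11b, Immp1l and Dph3 the annotated ORF did not. Tnfrsf11b (osteoprotegerin, the decoy receptor for RANKL) had 4.34 and 5.68 CPM in PE cells and 2.93 and 3.35 CPM in control cells on its uORF, a log2 fold change of 0.67 ± 0.25, with -0.06 ± 0.03 on the annotated ORF. Immp1l, a subunit of the mitochondrial inner membrane peptidase, had 2.84 and 2.92 CPM in PE cells and 1.46 and 1.497 CPM in control cells, a log2 fold change of 0.96 ± 0.35, with -0.19 ± 0.17 on the annotated ORF. Dph3, which acts in diphthamide synthesis on elongation factor 2, had 2.17 and 2.76 CPM in PE cells and 0.947 and 1.21 CPM in control cells, a log2 fold change of 1.17 ± 0.39, with 0.07 ± 0.18 on the annotated ORF. Ext1 (a heparan sulfate polymerase, 0.93 ± 0.38 on the uORF and 0.60 ± 0.07 on the annotated ORF) and Cln8 (a membrane protein of the endoplasmic reticulum, 1.04 ± 0.39 and 0.35 ± 0.12) were called on both. Adjusted p ran from 0.014 for Dph3 to 0.048 for Ext1 over these 5 uORFs (edgeR quasi-likelihood test). Their calls were lost without single libraries: either control or the second PE library for Tnfrsf11b, any of the 4 for Immp1l and Ext1, the first control or second PE library for Dph3, and the second control or first PE library for Cln8. A uORF that passed beside an annotated ORF that did not pass does not by itself show a difference between them, and that difference was tested on its own.

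**Figure D3:**
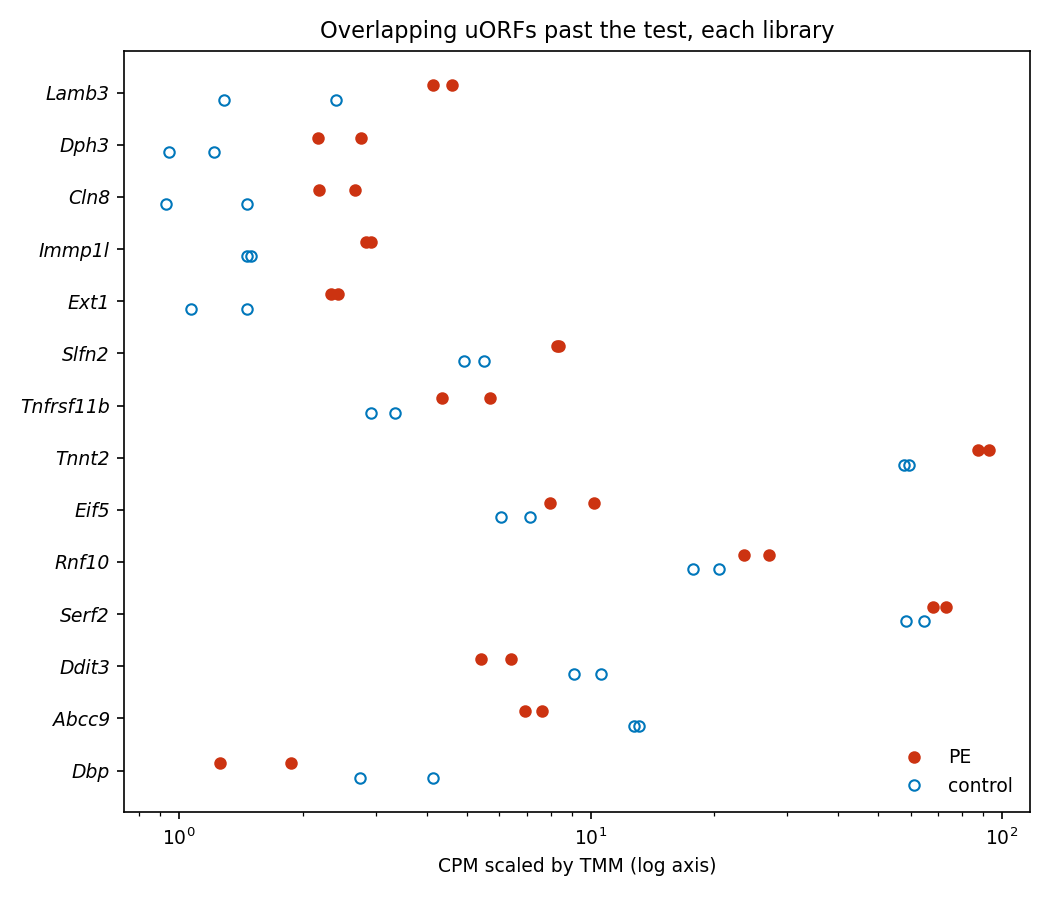
CPM scaled by TMM (log axis) of overlapping uORFs named in the text that passed the test with a mean count of at least 20, 1 row per gene, PE libraries as filled points above control libraries as open points. Only uORFs whose groups did not overlap were drawn, so in each row both PE libraries lie on 1 side of both control libraries.

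For each gene the overlapping uORF was set beside the annotated ORF with the most counts, and the difference of their log2 fold changes was tested in edgeR as an interaction over all 921 pairs of a non-annotated and an annotated ORF with a mean count of at least 10 in both. Of 131 pairs with an overlapping uORF, 1 passed (0.763%), against 1.95% of all pairs (1.63% with the upstream or other ORF higher) and 13 of the 671 pairs with a separate uORF. It was Tnnt2, with a relative log2 change of 0.45 ± 0.11 (adjusted p = 0.026, edgeR quasi-likelihood test). The Tnnt2 uORF held 1.30% and 1.37% of the counts of both ORFs in PE cells and 0.999% and 0.968% in control cells. The call rested on all 4 libraries: leaving out each in turn gave relative changes of 0.41 to 0.49 with adjusted p of 0.059 to 0.42. At an unadjusted p under 0.05 there were 18 pairs (13.7%), 13 higher and 5 lower, the same share as over all pairs (126 of 921, 97 higher and 29 lower). The nearest to the threshold were Rusc2 (1.76 ± 0.47, adjusted p = 0.050), Rnf5 (1.91 ± 0.56, 0.079), Capzb (-0.72 ± 0.23, 0.13) and Tnfrsf11b (0.73 ± 0.23, 0.13), named here after their values were seen. For Atf4 the relative change was 0.39 ± 0.23 (adjusted p = 0.44) and for Abcc9 0.40 ± 0.18 (0.32). The median relative change was 0.25 over pairs with an overlapping uORF and 0.18 over pairs with a separate uORF. Summed over the 131 pairs, the uORFs held 3.60% and 3.62% of counts in PE cells and 3.18% and 3.17% in control cells, with medians per pair of 6.73% and 6.21% in PE cells and 5.74% and 5.64% in control cells.

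**Figure D4:**
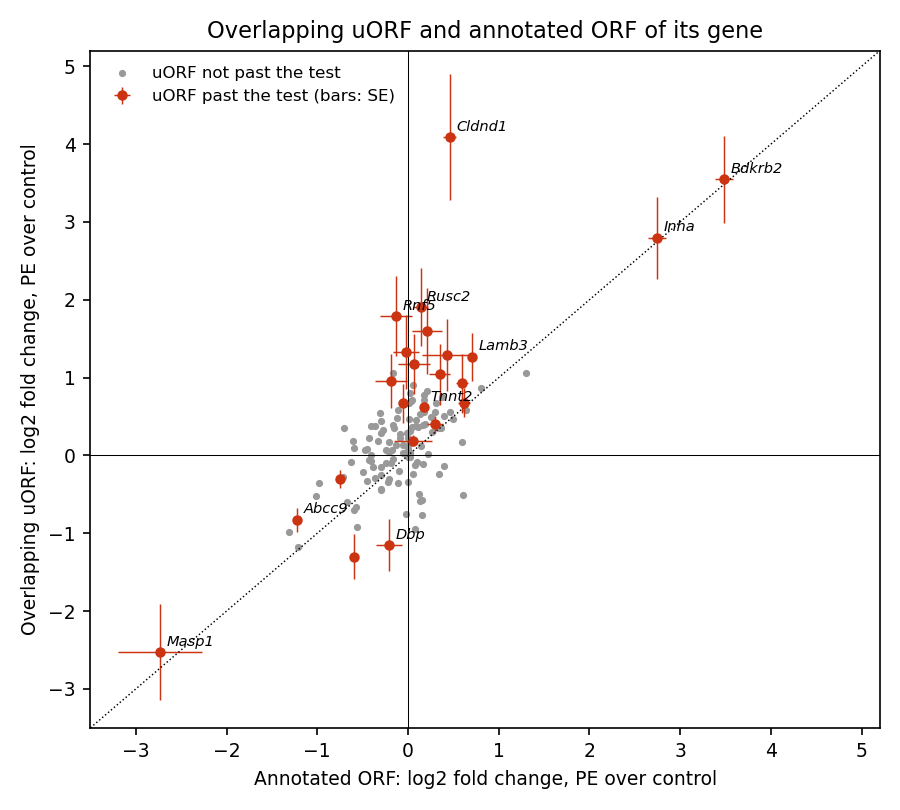
Log2 fold change, PE over control, of the overlapping uORF (vertical axis) against that of the annotated ORF of its gene (horizontal axis). Red points passed the test on the uORF and carry standard errors, grey points did not, and the dotted line marks equal change. Bdkrb2, Inha and Masp1 lie near the line. Tnnt2 (0.62 and 0.17) and Abcc9 (-0.82 and -1.22) lie above it, and Dbp (-1.15 and -0.21) lies below it.

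The annotated partners moved in both directions. Of the 147 tested uORFs 134 had a tested annotated ORF, of which 66 passed, 27 higher and 39 lower in PE cells, with a median log2 fold change of -0.01. Over all 11402 annotated ORFs tested, 45.0% passed, 2538 higher and 2589 lower. Of the 26 uORFs that changed, 23 had a tested partner, and 13 of these partners passed, 9 higher and 4 lower.

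On a scale of frame 0 P-sites per codon, overlapping uORFs were usually occupied a little less densely than the annotated ORF. The 67 members that share residues with an annotated ORF of their gene are included. Frame 0 P-sites in the overlap can also include off-frame P-sites of the coding sequence, which were not separated. The comparison holds for P-sites alone: median counts per P-site were 0.249 on overlapping uORFs and 1.14 on annotated ORFs, and density by counts was not compared. The median ratio of uORF to annotated ORF was 0.806 over 495 pairs (quartiles 0.459 and 1.38), 198 uORFs were the denser of the pair, and 5 exceeded 10 times the annotated density: Fbxo10 (23.9), Zfand4 (17.6), Serf2 (17.1), Srd5a1 (12.1) and Map3k13 (10.1). For Fbxo10, 41 residues of the uORF peptide were identical to the annotated protein of another gene, Tomm5. Of the 59 residues of the Serf2 uORF peptide, 14 were identical to the annotated Serf1 protein, from residue 36 of both. Whether this member is a Serf2 protein and not a separate uORF peptide was not tested. The Atf4 uORF was 6.67 times as dense as its annotated ORF and the Tnnt2 uORF 0.119 times. By counts, the uORF held over 50% of the pair in every library in 2 of 131 pairs, Serf2 (91.6% and 93.1% in PE cells, 90.4% and 92.6% in control cells) and Hyal3 (from 53.8% to 65.8% over the 4 libraries), and under 5% in every library in 42. The annotated Serf2 ORF had only 0.0290 counts per P-site, so its share by counts is set by few of its footprints.

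Other gene lists held few members. Of 69 genes of heart muscle structure and calcium handling, 4 had an overlapping uORF and 2 were tested, with 1 higher (Tnnt2) and 1 lower, and Myoz2 was among those not tested. Of 127 transcription and chromatin regulators 7 had one and 2 could be tested, Atf4 and Smad7 (an inhibitor of TGFβ signalling, log2 fold change 0.03 ± 0.33), neither past the test. Among 73 genes of mitochondria and metabolism, none of 3 tested passed: Opa1, the GTPase of inner membrane fusion (0.37 ± 0.41), Dnm1l, the GTPase of fission (-0.57 ± 0.44), and Cox7a2l (-0.19 ± 0.16). Of 119 signalling genes 4 had an overlapping uORF and 1 was tested, Spry2, a feedback inhibitor of receptor tyrosine kinases (0.59 ± 0.32 on the uORF, 0.64 ± 0.08 on the annotated ORF). Of 70 genes of ubiquitin, autophagy and folding 2 had one and Usp2, a deubiquitinase, was tested (-0.59 ± 0.51). Of 81 genes of RNA processing and translation 4 had one and 2 were tested, Eif5, which passed, and Eif4e2, a cap-binding protein (0.45 ± 0.50).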

How the data were processed

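Ribosome footprints were measured in 2 PE and 2 control libraries. Raw counts per ORF, as whole numbers, were deposited by the authors. Per the file headers, a second deposited table gives the authors' DESeq2 log2 fold changes and p-values, a mean of normalized counts over libraries (held here under the unit signal, deposited by the authors, not used), ORF class, coordinates, peptide and P-sites per frame, which carry no library. The genome build was Rnor_6.0, and STAR 2.4.2a, Bowtie 1.1.2 and cutadapt 2.0 are named, per the submitters' processing notes. Neither the ORF caller nor the counting program is given in the sources used here. Per-sample columns left unused numbered 0.

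After filterByExpr and TMM scaling (factors 0.982 to 1.02), counts went into the robust quasi-likelihood test of edgeR 4.0.16 under R 4.3.3, with Benjamini-Hochberg adjustment over 12609 ORFs. Standard errors are the absolute log2 fold change over the square root of F. The common biological coefficient of variation was 2.18%. The pair model had terms for library, ORF kind and kind by treatment. Alternatives were RLE or total scaling, no filter, DESeq2 1.42.0, a length offset, a replicate block and leaving out libraries. Scripts were tested on simulated counts.

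Chi-square per degree of freedom between replicates was 1.60 in PE and 1.61 in control, so no library was a copy of the other in its group. These values cannot tell separate cultures from repeat libraries of the same culture. Members, gene lists and tests were chosen with earlier results of these data known. Genes named were up to 12 highest and 12 lowest called uORFs whose groups did not overlap and whose mean count reached 20, called pairs likewise (up to 8 each way), the 12 of highest mean count, all listed uORF-regulated genes, and up to 4 of each other list (7 lists, and 6 cell type marker lists). Some genes that meet this rule are not reported here.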

Additional observations from a re-analysis of the deposited data

How the results depend on the processing

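Over all ORFs, DESeq2's Wald test called 1724 higher and 1722 lower, against 2696 and 2690 with edgeR. Among overlapping uORFs it called 6 higher and 4 lower, and removal of the ORF length trend gave 12 higher and 17 lower, against 19 and 7. Leaving out each library in turn gave 13 to 16 higher and 6 to 7 lower. Restricted to members with at least 0.5 counts per P-site, 16 of the 26 calls counted, and without members sharing 10 residues with their gene's annotated ORF 25 did (an alternative added after seeing the data). The latter compared a member with its own gene alone. It kept Abcc9 and Serf2, which share residues with another gene, and Ddit3, which had no annotated ORF to compare. It therefore cannot show that the 25 are separate uORF peptides. The median log2 fold change was 0.18, and under alternatives added after seeing the data 0.14 with library totals alone, 0.087 without the low-count filter, 0.065 with the length trend removed, 0.11 with DESeq2 and 0.14 to 0.28 leaving out each library. For uORFs higher relative to the annotated ORF the count was 1, against 2 with library totals, 5 without a library term, 3 at a mean count of at least 30 and 0 to 2 leaving out each library. For those lower it was 0, against 1 without a library term and 1 at a mean count of at least 30. The summed counts of uORFs relative to annotated ORFs differed by 0.19 (log2), by 0.22 without the pair of the largest count and by 0.25 as the median pair.

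The groups share replicate numbers. Deviations of same-numbered libraries from their group means correlated at 0.012 over 9746 ORFs. Much of these deviations is counting error (chi-square per degree of freedom 1.60 and 1.61), so this value cannot decide whether the numbers pair the libraries. With a replicate block 19 overlapping uORFs were higher and 8 lower, 3 pairs were higher in place of 1, and among named uORFs Ext1 lost its call (adjusted p = 0.055, edgeR; 0.055 to 0.28 over the alternatives that ended it).

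For the named uORFs and the Tnnt2 pair no alternative turned a direction that had been called, 51 values lost their call and 4 gained one. With 2 libraries a group and a median mean count of 20.75, the median standard error was 0.40. Changes of that size or smaller were mostly not detectable at this depth. Larger ones could fall short too, as on Spry2 (log2 fold change 0.59) and Usp2 (-0.59).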

Other observations

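A further 10 overlapping uORFs passed the test with a mean count under 20 and so fell outside the rule for naming, and those named here were chosen after their values were seen. The bradykinin receptor gene Bdkrb2 had 28 and 30 counts on its uORF in PE cells and 3 and 2 in control cells (log2 fold change 3.55 ± 0.56). Its annotated ORF was higher by 3.48 ± 0.10, and 24 of the 97 residues of the uORF peptide were identical to the beginning of that protein. Inha, the inhibin α subunit, had 30 and 24 counts in PE cells and 2 and 6 in control cells (2.80 ± 0.53, and 2.75 ± 0.10 on the annotated ORF). Masp1, a protease of the lectin pathway of complement, had 2 and 4 counts in PE cells and 13 and 25 in control cells (-2.53 ± 0.61, and -2.73 ± 0.46 on the annotated ORF). For Cldnd1 there were 24 and 12 counts in PE cells and 0 and 2 in control cells on a uORF of 10 codons, with 38.1% of P-sites in the uORF's frame. Others were Rusc2 (1.91), Rnf5 (1.79), Prmt2 (1.60), Josd2 (1.33) and Adora2a (-1.23).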
